A study of Mus musculus with 42 samples.

Results

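The genes of cholesterol and fatty acid synthesis were followed in mouse CD4 T cells with and without Trmt61a, which encodes the catalytic part of the tRNA methyltransferase that acts on adenosine 58. The set was a list of 35 gene symbols. It was looked up in 4 deposited tables that compare the conditional knockout (cKO) with the wild type (WT) after 0, 3, 6 and 48 h of stimulation. A table lists a gene only when the unadjusted p of its comparison was under 0.05, so a gene that is absent has no value at that time. Of the 35 genes, 26 were listed at 1 or more times, among 2828 genes of all kinds that were, and 9 were listed at none.

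Naive CD4 T cells came from the spleens of C57BL/6 mice 8 weeks old and were isolated with a kit. Cells of either genotype, labelled wild type or Trmt61a cKO, were left untreated (0 h) or cultured on plates coated with antibodies to CD3 (5 µg/ml) and CD28 (2 µg/ml), which engage the T cell receptor and its main costimulatory receptor. The labels of these samples do not name the Cre driver of the knockout; for other mice of the series the design text names Cd4Cre, which acts in the T cell lineage. There were 2 RNA-seq libraries per genotype and time, 16 in all, of 42 samples in the series. Nothing states that the libraries of a group came from separate mice, so p-values measure the spread between these libraries, which may be technical. In bulk RNA, fewer cells of a type and less RNA per cell cannot be told apart.

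Cholesterol is built from acetyl-CoA. The mevalonate arm of the pathway makes isoprenoid units and joins them to farnesyl diphosphate, and the sterol arm turns these into squalene, lanosterol and at last cholesterol. Fatty acid synthesis starts from the same acetyl-CoA, which fatty acid synthase extends to palmitate, and elongases and desaturases then shape the chain. Transcription of most of these enzymes is driven by the SREBP factors, the products of Srebf1 and Srebf2, which Insig1 holds back in the endoplasmic reticulum when sterols are plentiful. T cells that have been stimulated switch these pathways on to build membranes before they divide.

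A value below is a scaled read count, that is, reads on a gene divided by 1 factor per library. A gene is called when the adjusted p in the authors' deposited table was under 0.05. The reads that could be recovered over all listed genes of a table ran from 423873 to 4482346 per library. The total depth is unknown, since only listed genes were seen. At 0 h, cKO library 2 had 674416 reads over listed genes against 423873 to 441827 in the other 3 libraries. Of the 384 genes listed at 0 h, 297 were higher in the cKO, so this sum does not measure depth. The authors' factor for this library was the lowest at 0 h, at 0.868 against 1.01 to 1.07, relative to their geometric mean. Trmt61a checked the labels. At 48 h it stood at 22.8 and 60.6 in the cKO libraries and at 955 and 983 in the WT libraries, and it was called lower at all 4 times, at 0.0785, 0.103, 0.106 and 0.0430 times the WT mean after 0, 3, 6 and 48 h.

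At 48 h the question was how the genotypes differed once the cells had long been activated. Of the 35 genes, 26 (74.3%) were listed, all 26 of them lower in the cKO. Of these, 16 were called lower and none higher. Among 9940 genes behind the authors' adjustment, 1.54% were called lower and 0.835% higher, and 7.33% were listed as lower. The median log2 fold change of the 26 listed genes was -0.44, against -0.23 for all 1195 listed genes, of which 758 were lower and 437 higher, and -0.31 for those 758. Among called lower genes it was -0.46 in the set and -0.40 over all 153. In all 26, both cKO libraries lay below both WT libraries, as did 63.1% of all genes listed at 48 h and 754 of the 758 listed as lower, so this is shared by nearly every gene listed as lower. The ratio of cKO to WT means ran from 0.571 for Mvd to 0.902 for Srebf2. Among the lists of B cell (10 genes), monocyte and macrophage (12), erythroid (6) and pancreatic acinar genes (23), none was listed at 48 h. Eomes, the 1 listed gene of 10 that mark CD8, NK or gamma-delta T cells, was called lower (log2 fold change -0.51, adjusted p = 0.00816). Bpifa2, the 1 listed gene of 16 from the submandibular gland, stood at 15.9 and 55.2 in the cKO and 4.36 and 7.39 in WT. Of 10 CD4 T cell markers, 3 were listed, all higher, and of them Cd5 was called (log2 fold change 0.45, adjusted p = 0.00198). The 3 listed markers summed to 18231 to 21056 in the cKO and 15390.1 to 15912 in WT. The part of any of these in the results at 48 h was not tested.

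**Figure D1:**
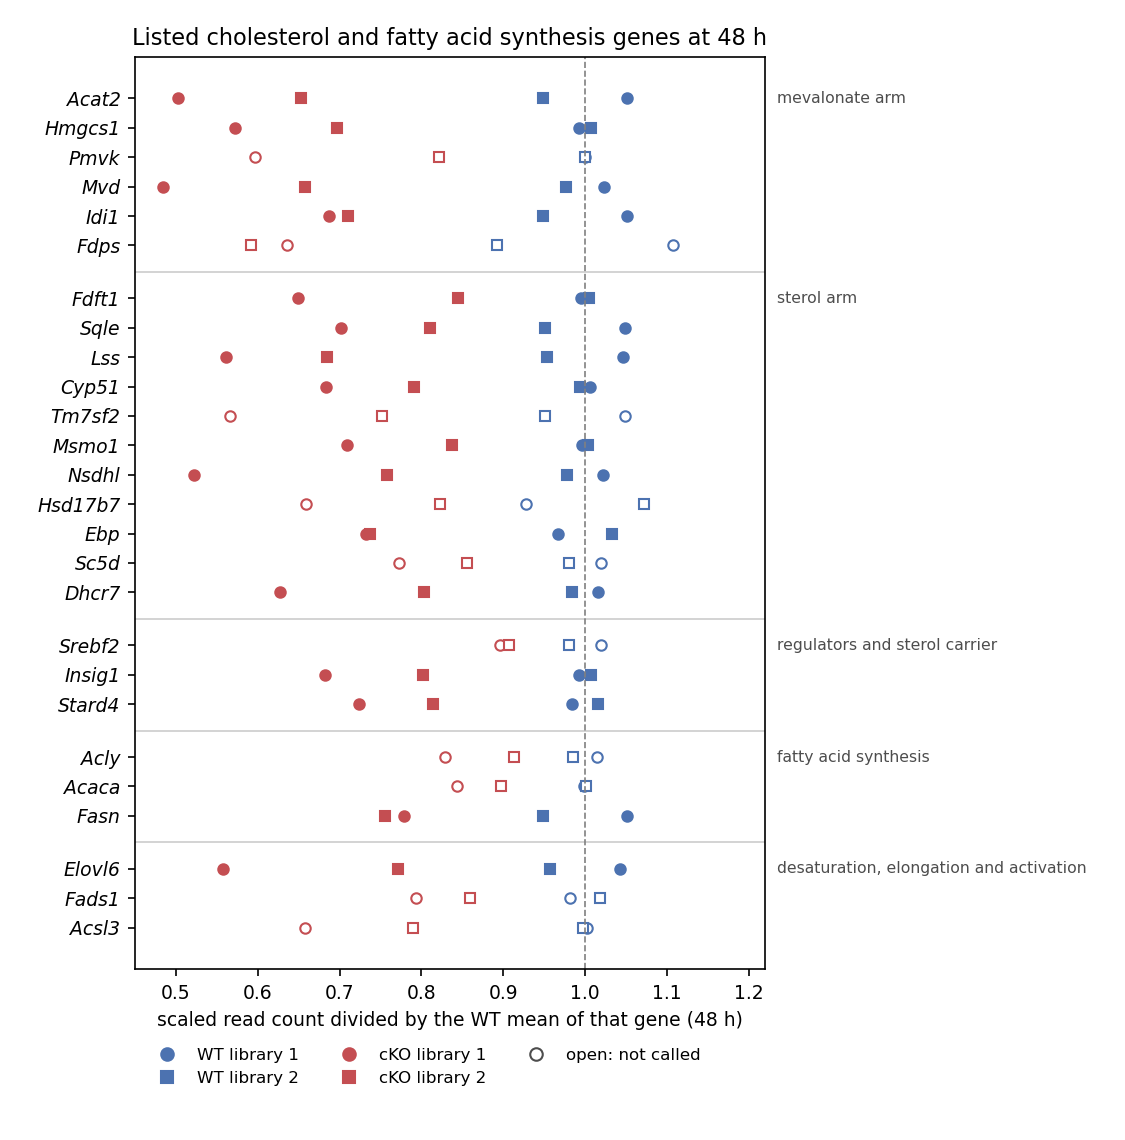
Values of the 26 listed genes at 48 h, each divided by the WT mean of that gene, by role; circles and squares are libraries 1 and 2, blue WT and red cKO, and open symbols mark genes that were not called. Every red symbol lies to the left of both blue symbols of its row, and Acat2, Mvd and Nsdhl reach furthest left.

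The promoters of these genes were set beside their values because the genes moved in 1 direction. RefSeq promoters (250 bases before to 50 after the annotated start, GRCm38.p6) were found for 28 of the 35 genes. A CCAAT box, the letters CCAAT on either strand, which NF-Y binds, was present in 24 of these 28 (85.7%), in 11 of the 13 called genes with a promoter (84.6%), in 50.4% of the genes listed as lower at 48 h and in 41.1% of all 27025 genes of the promoter table; a gene with several promoters counts if any of them has a match. A GC box, GGGCGG on either strand, which Sp1 binds, was present in 23 of 28 (82.1%), against 68.6% of genes listed as lower and 38.2% of all. The E-box CACGTG, to which SREBP can also bind, was found in 5 of 28 (17.9%), against 10.7% and 8.09%. The sterol element, searched as TCACNCCAC on both strands, had 1 match in the set, in Hmgcs1 (3.57%), against 1.90% and 1.44%. The median GC content of the promoters was 62.7% in the set, 60.7% in genes listed as lower and 52.7% in all, and its part in these shares was not tested. A match shows only that the letters are there. A missing match shows only that this spelling is absent from these bases, and other spellings of the sterol element were not searched.

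The 250 bases before the start are shown for 7 genes: the 4 called with the lowest adjusted p at 48 h (Hmgcs1, Lss, Mvd and Acat2), the called gene of fatty acid synthesis (Fasn), the called regulator (Insig1) and the gene that was called in opposite directions at 3 and 48 h (Elovl6). Each runs 5′ to 3′ along the strand of its gene, and capitals mark CCAAT, its reverse complement and, in Hmgcs1, the sterol element.
Hmgcs1, chr13:119690101-119690350, strand +: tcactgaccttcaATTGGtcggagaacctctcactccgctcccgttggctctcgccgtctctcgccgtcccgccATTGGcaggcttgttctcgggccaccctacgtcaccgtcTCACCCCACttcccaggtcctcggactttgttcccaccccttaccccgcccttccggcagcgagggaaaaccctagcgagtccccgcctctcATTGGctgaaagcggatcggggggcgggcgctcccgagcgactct
Lss, chr10:76531355-76531604, strand +: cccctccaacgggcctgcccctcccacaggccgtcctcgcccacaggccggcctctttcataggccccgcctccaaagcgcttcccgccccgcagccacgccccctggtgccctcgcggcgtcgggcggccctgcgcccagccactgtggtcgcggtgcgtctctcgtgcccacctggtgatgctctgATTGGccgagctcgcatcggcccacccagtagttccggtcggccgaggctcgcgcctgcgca
Mvd, chr8:122443423-122443672, strand -: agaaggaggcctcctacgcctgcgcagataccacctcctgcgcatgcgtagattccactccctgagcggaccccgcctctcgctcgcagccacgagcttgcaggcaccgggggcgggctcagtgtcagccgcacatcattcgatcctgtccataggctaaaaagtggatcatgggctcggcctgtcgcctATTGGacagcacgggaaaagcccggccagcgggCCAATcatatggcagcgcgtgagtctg
Acat2, chr17:12960726-12960975, strand -: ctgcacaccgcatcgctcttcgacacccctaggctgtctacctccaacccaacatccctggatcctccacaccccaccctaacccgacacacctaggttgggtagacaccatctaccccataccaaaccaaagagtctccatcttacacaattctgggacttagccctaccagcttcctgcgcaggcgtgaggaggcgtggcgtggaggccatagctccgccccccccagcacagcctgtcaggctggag
Fasn, chr11:120824548-120824797, strand -: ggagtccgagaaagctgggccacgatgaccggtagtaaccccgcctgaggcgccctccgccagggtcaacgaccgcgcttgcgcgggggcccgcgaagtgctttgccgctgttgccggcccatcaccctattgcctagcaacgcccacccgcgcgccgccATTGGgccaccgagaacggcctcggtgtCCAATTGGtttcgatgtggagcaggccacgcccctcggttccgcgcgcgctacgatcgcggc
Insig1, chr5:28071162-28071411, strand +: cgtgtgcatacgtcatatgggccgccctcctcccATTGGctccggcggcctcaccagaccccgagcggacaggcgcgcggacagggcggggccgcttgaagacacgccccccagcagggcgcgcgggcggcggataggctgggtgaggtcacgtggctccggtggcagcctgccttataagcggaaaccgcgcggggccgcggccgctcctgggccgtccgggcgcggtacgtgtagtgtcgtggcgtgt
Elovl6, chr3:129532136-129532385, strand +: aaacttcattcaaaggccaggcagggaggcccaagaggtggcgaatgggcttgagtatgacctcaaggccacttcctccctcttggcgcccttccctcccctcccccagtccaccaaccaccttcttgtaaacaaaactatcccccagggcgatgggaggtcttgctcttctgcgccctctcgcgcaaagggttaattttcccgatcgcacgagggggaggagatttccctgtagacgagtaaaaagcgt
Hmgcs1 held 3 CCAAT boxes in this stretch, which begin 237, 176 and 45 bases before the start, and its sterol element begins 137 bases before it. In Fasn the boxes begin at 90, 62 and 59 bases, and the last pair overlap on opposite strands. Mvd had boxes at 60 and 27 bases, Lss at 62 and Insig1 at 216. Acat2 and Elovl6 held none, although both were called lower at 48 h.

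**Figure D2:**
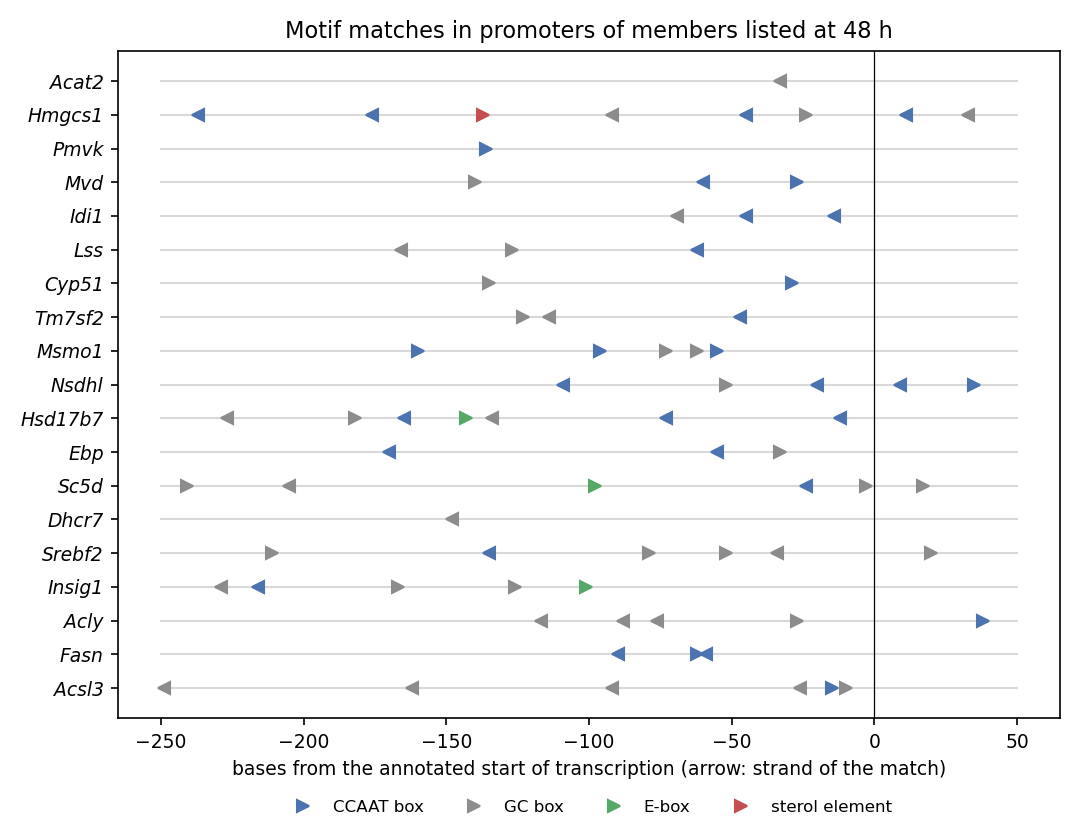
Motif matches in the promoters of genes listed at 48 h for which any was found, by distance in bases from the annotated start (0); each triangle is 1 match and points along the strand of the match. Of several promoters of a gene the one with the lowest coordinate is drawn. For Dhcr7 this leaves out a pair of CCAAT boxes, an E-box and further GC boxes. Over all promoters, CCAAT boxes (blue) are present in 18 of the 21 listed genes with a promoter, Dhcr7 among them. The only match to the searched spelling of the sterol element (red) is in Hmgcs1, 137 bases before the start.

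In the mevalonate arm, 6 of 7 genes were listed at 48 h and 4 were called lower, with a median log2 fold change of -0.68. This was the lowest median of the 5 role groups. The cKO values of Hmgcs1 were 2797 and 3407 in libraries 1 and 2, against 4856 and 4924 in WT. Hmgcs1 (ENSMUSG00000093930, mm10 chr13:119690379-119708260, plus strand) makes HMG-CoA, and it had the lowest adjusted p of the set (log2 fold change -0.66, adjusted p = 2.56e-07 in the authors' deposited table). On the recovered reads, DESeq2 put its log2 fold change at -0.66 with an SE of 0.10. Mvd (ENSMUSG00000006517, chr8:122433601-122443422, minus strand), which decarboxylates mevalonate diphosphate to isopentenyl diphosphate, measured 818 and 1113 in the cKO and 1729 and 1652 in WT. Its mean of 965 ± 209 (SD, n = 2) was 42.9% below the WT mean of 1691 ± 54.8 (SD, n = 2), the widest gap of the set as a share of WT. The gap passed the authors' test at a log2 fold change of -0.81 (adjusted p = 7.85e-06), and the cKO libraries lay apart from each other by less than either lay from WT.

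Acat2 makes acetoacetyl-CoA, the first step of the arm. It stood at 783 and 1018 in the cKO and at 1637 and 1479 in WT. The log2 fold change was -0.79 (adjusted p = 9.17e-06), although reads of its near-identical neighbour Acat3 could be shared with it. Idi1, the isomerase of the isoprenoid units, had cKO values of 1876 and 1941 and WT values of 2871 and 2591. The cKO libraries were close together and both under WT (log2 fold change -0.52, adjusted p = 1.29e-04). The listed genes that were not called were Fdps and Pmvk. Fdps, which makes farnesyl diphosphate, had 109 and 102 in the cKO and 190.2 and 153 in WT. At these low values the log2 fold change of -0.71, the third lowest of the set, came with an adjusted p of 0.268. Pmvk, the phosphomevalonate kinase, read 515 and 709 in the cKO against 864 and 863 in WT. Its log2 fold change of -0.50 was the highest of the arm (adjusted p = 0.0872). Mvk, the mevalonate kinase, was not listed at any time.

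All 11 genes of the sterol arm were listed at 48 h, and 8 were called lower, at a median log2 fold change of -0.44. Lss (ENSMUSG00000033105, chr10:76531588-76557138, plus strand), the cyclase that closes the rings to lanosterol, was at 1566 and 1913 in the cKO and at 2923 and 2660.5 in WT. It had the lowest fold change of the arm (log2 fold change -0.68, adjusted p = 3.13e-06), with an SE of 0.12 by DESeq2. Nsdhl, which removes the carbons at C-4 together with its partner enzymes, measured 510.1 and 741 in the cKO and 999.9 and 956 in WT. Library 1 of the cKO was lowest, and both cKO libraries were below WT (log2 fold change -0.65, adjusted p = 0.0108). Cyp51, the demethylase of lanosterol, was one of the most abundant of these genes. Its values were 4776 and 5525 in the cKO and 7029 and 6948 in WT. The WT libraries lay almost on each other, and the cKO mean was 26.3% lower (log2 fold change -0.44, adjusted p = 3.49e-04).

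Squalene is made by Fdft1 and oxidised by Sqle. Fdft1 read 1749.6 and 2277 in the cKO and 2683 and 2707 in WT (log2 fold change -0.42, adjusted p = 0.0289). Sqle stood at 2222 and 2566 in the cKO and at 3321 and 3010.0 in WT (log2 fold change -0.40, adjusted p = 0.00999). For both, library 1 of the cKO was the lowest of the 4. Fdft1 overlaps Ctsb in RefSeq, and the strand setting of the counting is not stated, so its reads are uncertain. Later steps were lower too, with log2 fold changes from -0.68 for Lss to -0.30 for Sc5d. Dhcr7, the last reductase of the route, was at 775 and 993 in the cKO and at 1256 and 1216 in WT (log2 fold change -0.48, adjusted p = 0.0302). Ebp, the sterol isomerase, gave 720.5 and 726 in the cKO and 951 and 1016 in WT (log2 fold change -0.44, adjusted p = 0.0387). Msmo1, the C-4 methyl oxidase, gave 1550.1 and 1829.8 in the cKO and 2178 and 2195 in WT (log2 fold change -0.37, adjusted p = 0.0393). These 3 adjusted p were the closest to the threshold among the called genes, and none of the 3 passed it by DESeq2 on the recovered reads, at adjusted p of 0.0672, 0.0935 and 0.0698. Ebp was called in 0 of 12 other fits, while Hmgcs1 was called in 7.

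The 3 genes of the arm that were listed but not called were Tm7sf2, Hsd17b7 and Sc5d. Sc5d, a sterol desaturase, had the highest fold change of the arm. Its values were 1240.5 and 1376 in the cKO and 1639 and 1575 in WT (log2 fold change -0.30, adjusted p = 0.181). Tm7sf2, a sterol reductase with a lower level than the other genes of the arm (168 and 223 in the cKO, 311 and 282 in WT), had a log2 fold change of -0.60 (adjusted p = 0.201) and overlaps Vps51 in RefSeq. Hsd17b7, a reductase of sterol ketones, was at -0.43 (adjusted p = 0.139).

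Of the regulators and the sterol carrier, 3 of 4 were listed at 48 h and 2 were called lower. Insig1 (ENSMUSG00000045294, chr5:28071363-28078662, plus strand), the sterol-sensing anchor of SREBP and itself one of its targets, measured 2070.1 and 2432 in the cKO and 3012 and 3057 in WT. Its mean was 25.8% below WT (log2 fold change -0.43, adjusted p = 0.00465). Stard4 carries cholesterol between membranes. It measured 2051 and 2309 in the cKO and 2789 and 2879 in WT, with both cKO libraries below WT (log2 fold change -0.38, adjusted p = 0.0122). Srebf2, whose product is the SREBP best known for driving cholesterol genes, differed least of all 26. It stood at 9227 and 9342 in the cKO and at 10491 and 10098 in WT. That log2 fold change of -0.15 was not called (adjusted p = 0.441). It turned to 0.041 when the libraries were rescaled over the listed genes, which raised the median of all of these by 0.19. Srebf1 was not listed at any time.

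Fatty acid synthesis had 3 of 5 genes listed at 48 h and 1 called, at a median log2 fold change of -0.20. Fasn (ENSMUSG00000025153, chr11:120805846-120824547, minus strand) encodes fatty acid synthase and had the most reads of the set, up to 24376 in 1 library. Its values were 15757 and 15289 in the cKO and 21268 and 19214 in WT. The cKO mean of 15523 ± 331 (SD, n = 2) was 23.3% below the WT mean of 20241 ± 1453 (SD, n = 2). It passed the authors' test with a log2 fold change of -0.38 (adjusted p = 3.36e-04). Acly, which cleaves citrate to acetyl-CoA, was at 9183 and 10129.8 in the cKO and at 11249 and 10922 in WT (log2 fold change -0.20, adjusted p = 0.229). Acaca, the carboxylase that makes malonyl-CoA, was at 2460.1 and 2615 in the cKO and at 2912 and 2917 in WT (log2 fold change -0.20, adjusted p = 0.362). Both were 12.9% below WT with no overlap between the groups, and neither was called; Acaca overlaps Gm11437 in RefSeq. Acss2, which makes acetyl-CoA from acetate, and Me1, the malic enzyme, were listed at no time.

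The genes that elongate, desaturate and activate fatty acids had 3 of 8 listed at 48 h and 1 called. Elovl6 (ENSMUSG00000041220, chr3:129532355-129638495, plus strand), which elongates palmitate, measured 620.2 and 859 in the cKO and 1159.6 and 1066 in WT. It was 33.5% below WT (log2 fold change -0.59, adjusted p = 0.0136). Acsl3, which activates fatty acids to their CoA esters, was at 412 and 494 in the cKO and at 627 and 624 in WT (log2 fold change -0.47, adjusted p = 0.125); it overlaps Utp14b in RefSeq. Fads1, a front-end desaturase of polyunsaturated chains, was at 774 and 838 against 957 and 993 (log2 fold change -0.27, adjusted p = 0.394). The stearoyl-CoA desaturases Scd1 and Scd2, the elongases Elovl1 and Elovl5 and the desaturase Fads2 were not listed at any time. Over both fatty acid groups 2 of 13 genes were called, and over both cholesterol arms 12 of 18, with median log2 fold changes of listed genes of -0.33 and -0.50. This difference between the groups was not tested.

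**Figure D3:**
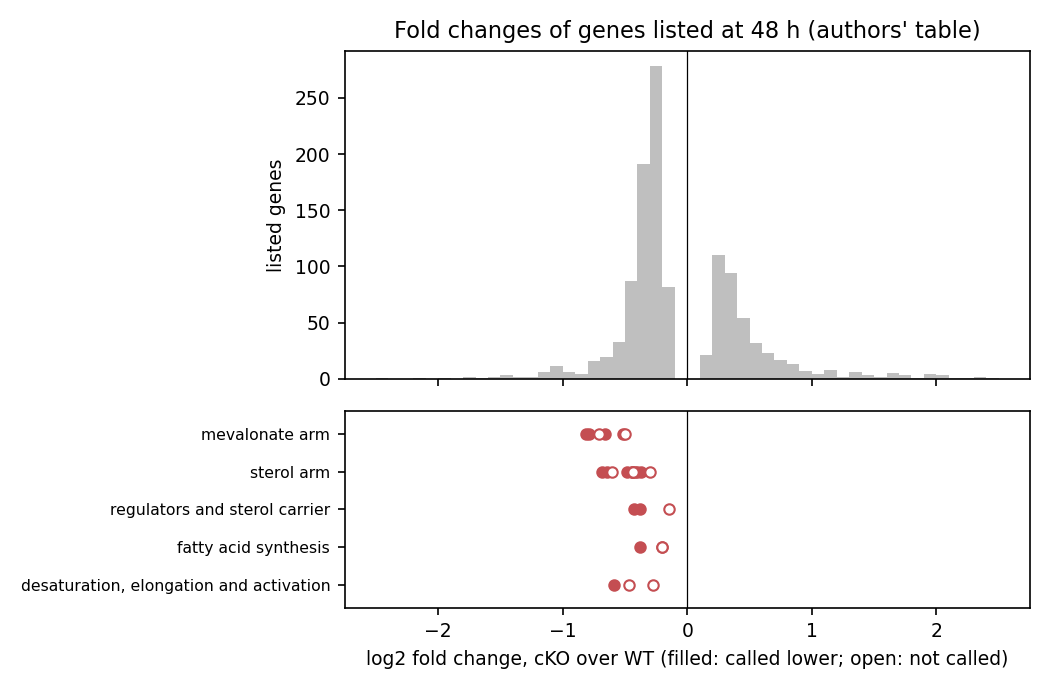
Log2 fold changes (cKO over WT) in the authors' deposited table of 48 h: above, a histogram of the listed genes between -2.5 and 2.5 (1165 genes; 30 lie outside); below, the 26 listed genes of the set by role, filled where called. The middle of the histogram is empty because only genes with an unadjusted p under 0.05 are listed, and all 26 genes of the set lie left of 0, between -0.81 and -0.15.

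The 2 cKO libraries of 48 h did not sit at the same depth below WT. Library 1 was below library 2 in 24 of the 26 listed genes of the set (92.3%), against 57.0% of all genes listed at 48 h, 67.4% of those listed as lower and 71.2% of those called lower. The exceptions were Fasn and Fdps. The median ratio to the WT mean was 0.671 in cKO library 1 and 0.796 in cKO library 2. Among all genes listed as lower these medians were 0.790 and 0.829. The difference from other genes was not tested. The WT libraries lay closer together, with WT library 1 above WT library 2 in 17 of 26 and a median ratio between them of 1.03. As a ratio of library 1 to library 2, the cKO values lay furthest apart for Nsdhl, at 510.1 and 741, and closest for Ebp, at 720.5 and 726.

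Per kilobase of gene length, the WT levels at 48 h were spread widely. Acly (2099.9 scaled reads per kb), Fasn (1849), Cyp51 (1583) and Srebf2 (1433) were highest, ahead of Hmgcs1 (1064), Insig1 (981) and Mvd (909). Tm7sf2 (53.0) and Fdps (40.8) were lowest. Mvd and Fdps, well apart in this order, were at 0.571 and 0.614 times WT. Near the top of the order, Acly and Srebf2 were at 0.871 and 0.902, and Fasn and Cyp51 at 0.767 and 0.737.

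Before 48 h few of these genes were listed. At 0 h 1 of 35 was listed, at 3 h 2 and at 6 h 1, and each of them was higher in the cKO. No gene of either cholesterol arm and no regulator was listed at these times. Over all genes, 0.0122% were called in either direction at 0 h, 1.14% higher and 0.5% lower at 3 h, and 0.5% in either direction at 6 h. The only gene of the set called at these times was Elovl6 at 3 h. It stood at 877 and 572 in the cKO and at 190.5 and 271 in WT. The lower cKO library was above both WT libraries, at a ratio of means of 3.14 (log2 fold change 1.65, adjusted p = 5.25e-05). DESeq2 called it as well (adjusted p = 0.00686), but not without WT library 1 (0.641) or cKO library 1, and neither limma nor edgeR called it (adjusted p of 0.641 and 0.656). At 6 h Elovl6 was again higher, at 721 and 413 in the cKO and 134 and 287 in WT. This was not called (log2 fold change 1.43, adjusted p = 0.346).

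Elovl6 was thus above WT at 3 h and below it at 48 h, and both differences were called. The tables of the times were scaled apart from each other, so the change between times was not tested. At 3 h, genes of other cell types differed between the same libraries. Of 23 pancreatic acinar genes 22 were listed, all higher in the cKO, and 19 were called. The listed ones summed to 1566 and 10737 in the cKO and 87.0 and 192 in WT. Of 16 submandibular gland genes 10 were listed, all lower, and 7 were called. The listed ones summed to 35.2 and 41.0 in the cKO and 9828 and 842 in WT. Of 10 genes that mark CD8, NK or gamma-delta T cells 6 were listed, all higher, and 3 were called. The listed ones summed to 1984 and 2182 in the cKO and 890.5 and 706 in WT. Of the macrophage and CD4 T cell lists 1 gene each was listed at 3 h and not called, Cst3 (log2 fold change 0.68) and Lck (-0.40). At 6 h the listed acinar, submandibular and CD8, NK or gamma-delta genes (18, 10 and 3) were higher, lower and higher in the cKO again. Of these, 5, 3 and 2 were called. The acinar sums were 225 and 2273 in the cKO against 25.0 and 80.3 in WT. Of 10 B cell markers 2 were listed at 6 h, both lower in the cKO, with sums of 887 and 1205 against 2808 and 3289.9 in WT; of them Igkc was called (log2 fold change -1.54, adjusted p = 0.00255). The acinar sum was higher in cKO library 2 at both times. The listed CD8, NK or gamma-delta genes summed higher in cKO library 2 at 3 h but in cKO library 1 at 6 h. Their sums at 6 h were 1079 and 971 in the cKO and 337 and 311 in WT. Elovl6 was higher in cKO library 1 at both times. The part of these lists in the value of Elovl6 was not tested.

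Fasn was listed at 3 h too, at 11153 and 8974 in the cKO and 7619.9 and 8069 in WT. It was above WT in both libraries and was not called (log2 fold change 0.36, adjusted p = 0.543). Acaca at 0 h was at 642 and 1486 in the cKO and 506 and 621 in WT. Most of its difference came from cKO library 2, and it was not called (log2 fold change 0.92, adjusted p = 0.999). With the libraries rescaled over the listed genes its log2 fold change was -0.050. This rescaling took the median of all genes listed at 0 h from 0.97 to 0.075, so a value near that median had to fall near 0. At 0 h the 3 listed macrophage markers of 12, C1qa, C1qb and C1qc, were lower in the cKO and not called, with sums of 1992 and 1088 against 3558 and 1838 in WT. Of 16 submandibular gland genes 7 were listed, all lower in the cKO, with sums of 84.5 and 69.7 in the cKO and 2378 and 76.6 in WT, and 2 of the 7 were called, Dcpp2 and Klk1b26, which had reads in WT library 1 alone. Alas2, the 1 listed erythroid gene of 6, was at 193 and 254 in the cKO and 104 and 71.0 in WT and was not called (log2 fold change 1.35, adjusted p = 0.999). The part of these lists in the value of Acaca was not tested.

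**Figure D4:**
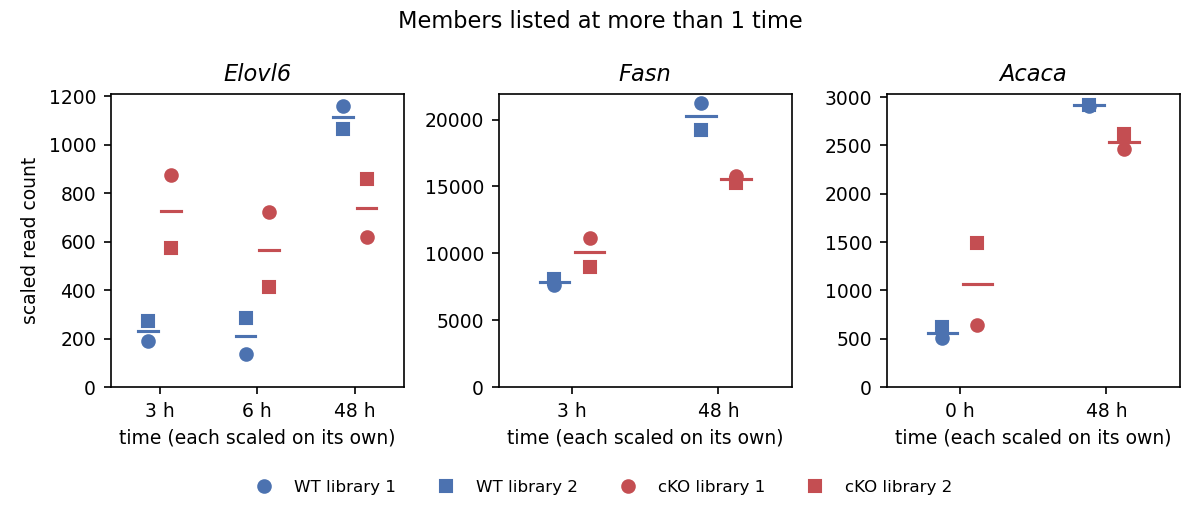
Scaled read counts of the 3 genes listed at more than 1 time; circles and squares are libraries 1 and 2, blue WT and red cKO, and bars are group means. Each time was scaled on its own, so heights are to be compared within a time: Elovl6 is above WT at 3 and 6 h and below it at 48 h, Fasn above at 3 h and below at 48 h, and Acaca above at 0 h and below at 48 h.

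Other genes of the same pathways were taken from 7 further lists. Among other genes of cholesterol synthesis and sterol sensing, Lbr, a sterol reductase of the nuclear envelope, was listed at 48 h and not called. It stood at 4091 and 4346 in the cKO and at 4899 and 4998 in WT (log2 fold change -0.23, adjusted p = 0.148).

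Among genes of cholesterol uptake, transport and storage, Soat2, which esterifies cholesterol for storage, was called higher at 48 h. It stood at 821 and 695 in the cKO and at 556 and 413 in WT, so it went the other way from the synthesis genes (log2 fold change 0.64, adjusted p = 0.0178). Neither Scarb1 (log2 fold change -0.36, adjusted p = 0.0747) nor Lrp8 (-0.31, adjusted p = 0.335), both lipoprotein receptors, was called. Among 8 LXR targets and efflux genes only Apoe was listed (log2 fold change 0.47, adjusted p = 0.397). Of 16 other genes of fatty acid synthesis 3 were listed. Aacs, which makes acetoacetyl-CoA in the cytosol for lipid synthesis, was called lower (log2 fold change -0.39, adjusted p = 0.0145), while the citrate carrier Slc25a1 (-0.31, adjusted p = 0.1998) and Acsl4 (0.19, adjusted p = 0.362) were not. Of 16 genes of glycerolipid synthesis, Cept1 (0.31, adjusted p = 0.109) and Agpat4 (-0.34, adjusted p = 0.397) were listed and not called. None of 11 isoprenoid branch genes and none of 14 genes of fatty acid oxidation was listed at 48 h.

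At the earlier times no gene of these 7 lists was called. At 0 h Apoe had a log2 fold change of -0.998 and Abcg1, a cholesterol exporter, of 0.70. At 3 h the listed ones were Dgat1 (0.63), Rabggta (0.32), Coq2 (0.46), Mlxip (0.27), Stard3 (-0.36) and Acacb (-1.60), and at 6 h Dgat1 (1.36), Npc2 (0.85) and Pnpla2 (0.76). Dgat1, which makes triacylglycerol, was above WT in both cKO libraries at both times, with adjusted p of 0.108 at 3 h and 0.122 at 6 h.

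The number of genes of the set called at 48 h differed between tests. The other tests were fitted on the listed genes alone, each already at an unadjusted p under 0.05 in the authors' table. Their estimates of spread thus come from selected genes, and a low unadjusted p or the same direction there is no separate support. In the shares of all genes, those not listed count as not called. DESeq2 on the recovered reads with the authors' scaling called 13 of the 16 lower, against 1.33% of all genes. edgeR's quasi-likelihood test called 0, with adjusted p of 0.103 to 0.311 and all 26 at an unadjusted p under 0.05, and it called 0.0402% of all genes lower. limma on log2(value + 1) called 0 as well, with adjusted p of 0.356 to 0.783 and 24 at an unadjusted p under 0.05, and it called 0.0201% of all genes lower. All 26 were lower in each of these 3 fits. Rescaling by size factors estimated over the listed genes raised the median of all listed genes at 48 h by 0.19 on the log2 scale. Then 4 were called lower, with 25 of 26 still lower and the median of the set at -0.25. Since 758 of the 1195 listed genes were lower, such factors take away part of any difference in that direction. Without WT library 1 DESeq2 called 1, without WT library 2 it called 3, without cKO library 1 it called 7 and without cKO library 2 it called 17. In a fit that lacks a library, the lone library of its genotype is assumed to vary like the other pair.

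**Figure D5:**
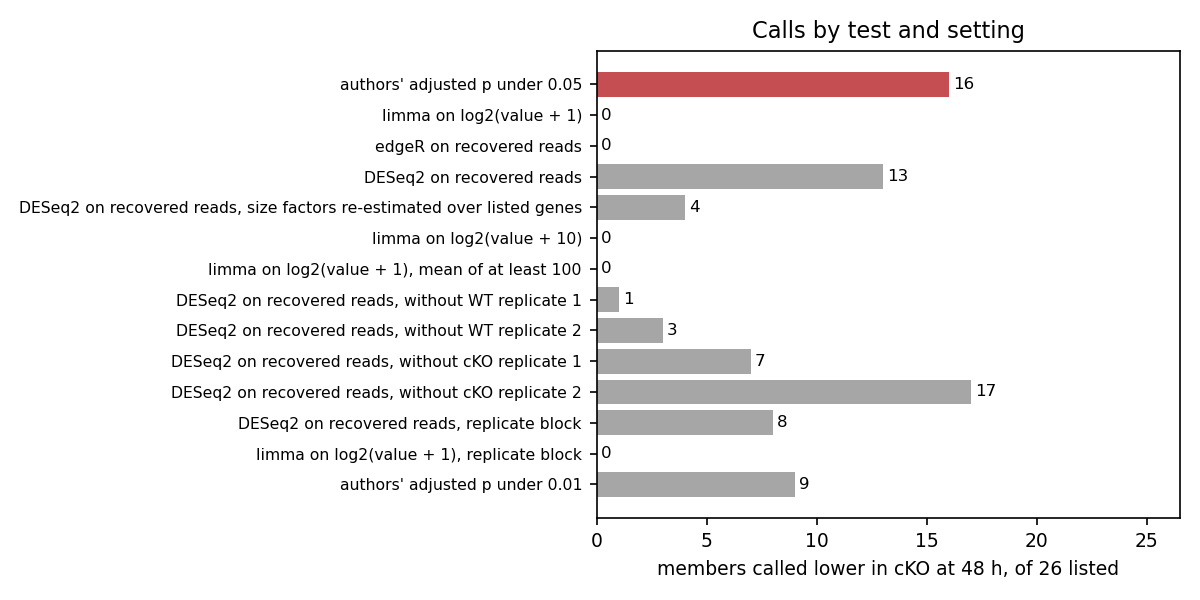
Number of genes of the set called lower in the cKO at 48 h, of 26 listed, in the authors' deposited table (red) and under other tests, scalings and subsets of libraries (grey). The count runs from 0 with limma and edgeR to 17 with DESeq2 without cKO library 2, against 16 in the authors' table.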

How the data were processed

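RNA-seq libraries were made with a strand-aware kit, per the labels' protocols. The submitters' processing notes list featureCounts 1.5.0-p3, Bowtie2 2.4.1, HISAT2 2.0.5 and Trim Galore 0.6.6 with the mm10 genome, without roles; the strand setting of the counting is not given in the sources used here. Per library, the deposited tables hold a signal, namely read counts divided by 1 factor per library. In each library, 100% of the values came out whole when divided by 1 step (tolerance 0.01), which gave the reads back. Log2 fold changes and p-values, plain and adjusted, are also the authors'; their test is not given in the sources used here. The tables hold genes with an unadjusted p under 0.05 only.

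The genes of the set, their roles, the further lists, the tests and the naming rule were chosen with earlier results of these data known. A gene was called at an adjusted p under 0.05 in the authors' table; the genes behind each adjustment, recovered from p and adjusted p, numbered 24502, 15399, 16602 and 9940 at 0, 3, 6 and 48 h. Named were all called genes of the set, those listed at more than 1 time, regulators, the lowest and highest fold change of each role, and up to 4 genes of each other list; some genes of those lists are not reported here. Alternatives were limma 3.58.1 on log2(value + 1) or log2(value + 10), a mean of at least 100, edgeR 4.0.16 and DESeq2 1.42.0 on recovered reads (R 4.3.3), re-estimated size factors, each library left out, a replicate block and an adjusted p under 0.01. They were fitted on the listed genes only and adjusted by Benjamini-Hochberg over the same numbers of genes. They were also run on simulated counts, but without the selection of genes by p, so that run does not show how they perform on these tables. The WT libraries of 18 h were not used here, since no knockout was sampled then. Promoters came from RefSeq (GRCm38.p6). Depth beyond the listed genes is unknown.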

Additional observations from a re-analysis of the deposited data

Results flagged for a closer look

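For 3 genes of the set both cKO libraries lay on 1 side of both WT libraries at an early time and on the other side at 48 h. The difference between times was not tested, since the tables were scaled apart. Most listed genes were separated in this way within a time. Of those listed as higher, 259 of 297 were at 0 h, 558 of 570 at 3 h and 338 of 359 at 6 h. Of those listed as lower at 48 h, 754 of 758 were. How many other genes changed sides between times was not counted. Elovl6 had a log2 fold change of 1.65 at 3 h and 1.43 at 6 h, against -0.59 at 48 h. Fasn had 0.36 at 3 h and -0.38 at 48 h. Acaca had 0.92 at 0 h and -0.20 at 48 h.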

How the results depend on the processing

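Of 16 genes called lower at 48 h, 9 passed an adjusted p under 0.01 in the authors' table, 0 were called by limma (pseudocount 1 or 10, or a mean of at least 100), 0 by edgeR and 4 by DESeq2 with re-estimated size factors, which moved the median log2 fold change to -0.25. DESeq2 called 1 to 7 without WT replicate 1, WT replicate 2 or cKO replicate 1, and 17 without cKO replicate 2. Under that scaling the calls of all genes at 48 h were 22 lower and 295 higher, against 153 and 83. The call of Elovl6 at 3 h was kept by DESeq2, also with re-estimated size factors, and went to 0 by limma (both pseudocounts and the filter) and edgeR; without 1 library the count was 0 to 1. For Acaca at 0 h the log2 fold change turned to -0.050 with re-estimated size factors, and without cKO replicate 1 DESeq2 called it higher (count of 1). Re-estimated size factors moved the median of all listed genes by -0.89, -0.25, -0.19 and 0.19 at 0, 3, 6 and 48 h. These factors rest on listed genes alone, of which 297 of 384 were higher at 0 h and 758 of 1195 lower at 48 h. At these times a shift against the larger side is built into the method, so these fits are no independent check. The cause of the other changes was not tested.

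The groups share replicate numbers, but nothing in the labels pairs them. Over the listed genes, same-numbered libraries deviated together little (correlations of 0.040, -0.094, 0.032 and 0.13 at 0, 3, 6 and 48 h). These genes were kept for a low p, which favours a small spread within groups, so the correlations cannot decide whether libraries were paired. With a replicate block, DESeq2 called 8 lower at 48 h and 0 higher at 3 h, and limma called 0 and 0. Depth limits Fdps most, with 94 reads in its shallowest library.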
